A study of Mus musculus with 6 samples.

Results

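The genes described here carry the names of proteins of the cytosolic ribosome, with the testis paralogs among them. Their RNA was measured in the testes of wild-type (WT) mice. They were chosen by symbol: protein-coding rows of the expression table named Rpl or Rps with a number and at most 1 letter of a, x, y or l and 1 more digit, Rplp0 to Rplp2, and Rpsa. The rule finds 84 of 45777 listed genes, 52 of the large subunit and 32 of the small subunit, and 83 of them had enough reads to be tested. It leaves out 5 matching rows that are annotated as pseudogenes, and it does not reach Fau, Rpl36al or Rack1, which also encode ribosomal proteins. The study compared testis RNA after long-term ethanol feeding with that after a control diet. In the ethanol-fed group WT mice received LDC liquid diet with ethanol for 16 weeks, 10 ml per head a day, and in the control-fed group WT mice received the control LDC liquid diet over the same time. Mice were first accustomed to liquid feeding on the control diet for 5 days, and no age or strain is given in the labels. Each diet had 3 libraries of total RNA from which ribosomal RNA had been removed, with 38935654 to 47420249 counts per library. Whether each library is from another mouse is not stated. The p-values therefore describe the spread among these samples alone, and that spread may be technical.

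The cytosolic ribosome joins a small subunit, which reads the messenger RNA, to a large subunit, which forms the peptide bond. Its proteins are needed in nearly equal numbers, and their messenger RNAs carry a run of pyrimidines at the 5′ end, the TOP motif, through which mTOR signalling controls their translation. In the testis the genes of the X chromosome are silenced during male meiosis. Autosomal copies of X-linked ribosomal protein genes, such as Rpl10l for Rpl10 and Rpl39l for Rpl39, are expressed in germ cells, and Rpl10l is known to be needed for male meiosis.

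The start sites of the 3 X-linked genes with a protein-coding autosomal copy, and of those copies, are shown because the results turn on these genes, beside Rps27 and Rps9 as members with a pyrimidine run. Each sequence is from RefSeq on GRCm38.p6 (mm10) and spans the 40 bases before the annotated start and the first 15 bases from it, read on the strand of the gene. Capitals mark a run of at least 8 pyrimidines (C or T) between 10 bases before the start and 15 bases from it. The windows lie at chrX:74270776-74270830 (plus strand) for Rpl10, chr12:66284387-66284441 (minus) for Rpl10l, chrX:37085208-37085262 (minus) for Rpl39, chr16:10170188-10170242 (plus) for Rpl39l, chrX:134585614-134585668 (plus) for Rpl36a, chr12:69184053-69184107 (minus) for Rpl36al, chr3:90213634-90213688 (minus) for Rps27 and chr7:3704001-3704055 (plus) for Rps9.
Rpl10: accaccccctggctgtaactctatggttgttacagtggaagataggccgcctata
Rpl10l: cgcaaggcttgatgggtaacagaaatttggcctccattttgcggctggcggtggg
Rpl39: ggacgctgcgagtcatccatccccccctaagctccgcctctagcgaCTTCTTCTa
Rpl39l: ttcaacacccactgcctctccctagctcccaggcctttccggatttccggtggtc
Rpl36a: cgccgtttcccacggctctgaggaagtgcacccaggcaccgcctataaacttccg
Rpl36al: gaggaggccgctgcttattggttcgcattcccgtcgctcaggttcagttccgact
Rps27: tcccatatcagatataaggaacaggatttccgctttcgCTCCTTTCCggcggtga
Rps9: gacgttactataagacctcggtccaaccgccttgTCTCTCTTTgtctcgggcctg

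Promoters were found for 64 of the 84 members. A pyrimidine run of at least 8 bases on the gene's strand lay in that window in 24 of the 64 (37.5%), against 2986 of the 27025 genes of the promoter table. The letters CTTTC, which can lie inside such a run, were in the window in 23.4% of members and 3.68% of all genes. The letters CCGGAAG, searched on both strands from 250 bases before the start to 50 bases from it, were present in 40.6% and 9.93%, and TGACGTCA, searched in the same way, in 7.81% and 2.03%. TATAA, on the gene's strand between 40 and 15 bases before the start, was in 7.81% and 4.22%. Each 7.81% is 5 of the 64 members. In the 17519 protein-coding genes alone, the run was in 11.1%, CTTTC in 3.46% and CCGGAAG in 12.9%. TGACGTCA was in 2.54% of them and TATAA in 5.02%. Of the X-linked genes and copies printed above, Rpl39 has a run of at least 8 and the other 5 have none, and Rpl39 and Rpl39l both have CCGGAAG. These matches describe the letters at annotated starts and do not show where transcription began in these testes.

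Ribosomal protein genes were abundant, and most lay within a narrow range of level per length. FPKM is the fragment count scaled to transcript length and library size, so that genes can be set side by side. The median over the 84 members was 139.8 FPKM, averaged over all 6 libraries, with the middle 50% between 103.1 and 231.6 FPKM, a 2.25-fold range. Over all 25073 tested genes the median was 2.53 FPKM and the same range was 17.5-fold. The large and the small subunit had medians of 139.0 and 150.0 FPKM.

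The highest level was that of Rpl41, which encodes the shortest ribosomal protein, at 866.4 ± 93.7 FPKM in controls and 894.9 ± 65.5 FPKM with ethanol (SD, n = 3). Rpl26, of the rim of the exit tunnel, followed at 493.0 ± 40.1 and 505.5 ± 40.1 FPKM. Rplp0, the base of the stalk that recruits elongation factors, stood at 500.5 ± 23.0 and 496.8 ± 27.1 FPKM. Rpl32 was at 395.7 ± 27.2 and 420.8 ± 6.76 FPKM, and Rps14 of the small subunit at 394.8 ± 25.9 and 413.0 ± 31.5 FPKM. The spread of 3 libraries covers the order of Rpl26 and Rplp0 and that of Rpl32 and Rps14.

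The stalk genes differed in level although the stalk holds more copies of P1 and P2 than of P0. Rplp1 was at 255.3 ± 17.7 FPKM in controls and Rplp2 at 133.8 ± 3.47 FPKM. Rps6, whose protein is the substrate of S6 kinase, was at 106.3 ± 7.15 FPKM, and Rpsa, which encodes the laminin receptor precursor of the small subunit, at 80.2 ± 7.31 FPKM. Fau and Rack1, outside the symbol rule, had levels within the range of the members. Fau, which encodes S30, was at 279.1 ± 10.4 FPKM in controls and Rack1, a scaffold on the small subunit, at 82.5 ± 4.64 FPKM.

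**Figure D1:**
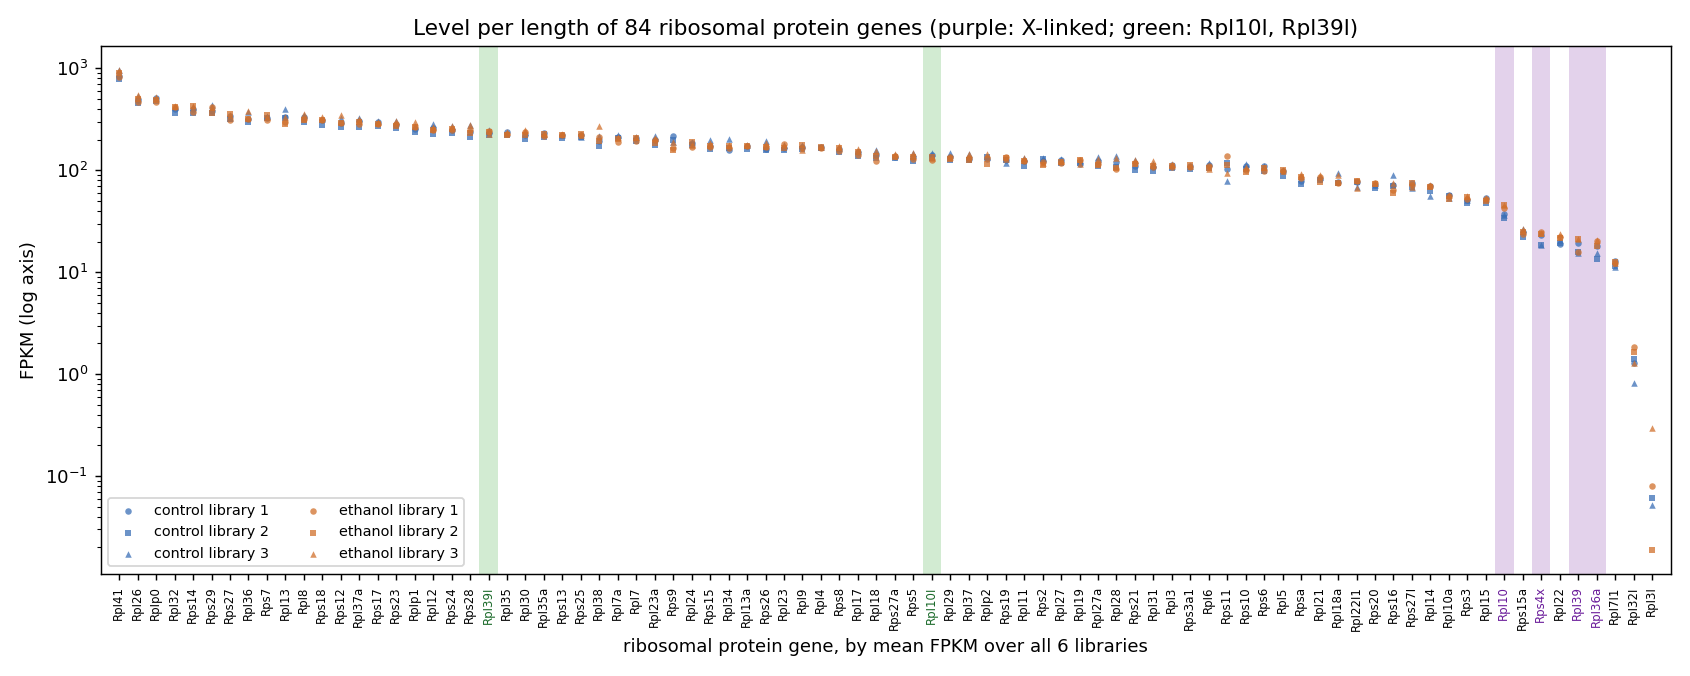
FPKM (log axis) of each of the 84 ribosomal protein genes in each of the 6 libraries, with genes ordered by their mean over all libraries; colours mark the diet, marker shapes the library number, purple bands the X-linked genes and green bands Rpl10l and Rpl39l. A value of 0 (Rpl3l in control library 1) is not drawn. The 4 X-linked genes lie among the lowest 9 genes on the right, while Rpl39l and Rpl10l lie among the other members.

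The X-linked genes lay at the lower end. The 4 X-linked members, Rpl10, Rps4x, Rpl39 and Rpl36a, had 17.7 to 40.2 FPKM averaged over all libraries, and 75 of the 80 autosomal members were at 40 FPKM or above. The autosomal members below 40 FPKM were Rps15a, Rpl22, Rpl7l1, Rpl32l and Rpl3l. Rps15a was there only per length: it had 141.8 CPM (counts scaled to library size alone) in control library 1, but its FPKM was based on a transcript of about 5695 bases, as derived from the deposited counts and FPKM. Rpl32l was at 1.17 ± 0.31 FPKM in controls, and its GENCODE M21 transcript has no annotated coding sequence. Rpl3l, the copy of Rpl3 that is typical of striated muscle, was the 1 member not tested, with 0, 7 and 6 counts in the control libraries and 8, 2 and 25 with ethanol.

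Levels of single members depend on how reads with several genomic matches were counted, which is not given in the sources used here. Ribosomal protein genes have many processed pseudogenes, and 224 rows of the table carry the symbol of such a gene followed by -ps. Those rows, which leave out pseudogenes under other symbols, took 0.0137 ± 0.00048% of the counts in controls, against 1.25 ± 0.077% for the members. Under ethanol they took 0.0145 ± 0.00036%, without overlap with the controls (exact permutation p = 0.1, the smallest possible), and the part of this in the values of Rpl10 and Rpl36a was not tested. Of all 100-base windows of a member's transcript, a median of 31.2% occurred also in transcripts of other genes in GENCODE M21, and 26 members shared at least 50%. The share was 84.4% for Rpl10, 83.6% for Rpl36a, 34.8% for Rps4x and 1.75% for Rpl39, and 0 for Rpl10l and Rpl39l. Rps27 shared 98.4%, mostly with its copy Rps27rt, and had 328.8 ± 12.3 FPKM in controls. The median of the 26 members with at least 50% shared was 165.4 FPKM, and that of the other 58 was 136.4 FPKM. The windows count only exact matches to annotated transcripts. The part of shared reads in the low levels of Rpl10, Rpl36a, Rps4x and Rpl39 was not tested.

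Each X-linked gene was far below its autosomal copy within every library. Rpl39l (Gene ID 68172; chromosome 16, 10170197 to 10174911 on mm10), the testis form of a small protein that lines the exit tunnel, was at 233.6, 223.2 and 249.6 FPKM in the control libraries. Rpl39 (Gene ID 67248; chromosome X, 37082518 to 37085222) was at 19.3, 15.6 and 15.5 FPKM in the same libraries. Rpl39l thus exceeded Rpl39 by 12.1, 14.3 and 16.1 times in controls, and by 15.3, 11.1 and 10.7 times with ethanol. The coding sequences of both genes have 156 bases and are 85.3% identical, and their transcripts share no 100-base window.

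Rpl10l (Gene ID 238217; chromosome 12, 66283379 to 66284401), the testis form of a protein that joins the large subunit late in its assembly, was at 142.1, 133.5 and 147.8 FPKM in controls. Rpl10 (Gene ID 110954; chromosome X, 74270816 to 74273135) was at 37.7, 34.1 and 36.3 FPKM. The ratio of Rpl10l to Rpl10 was 3.775, 3.914 and 4.075 in the control libraries and 2.955, 2.996 and 2.921 in the ethanol libraries, so that the diets did not overlap. Their coding sequences, of 645 bases each, are 84.8% identical.

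Rpl36al (chromosome 12, 69182734 to 69184067), outside the symbol rule, was at 93.7 ± 5.26 FPKM in controls against 15.7 ± 2.43 FPKM for Rpl36a (chromosome X, 134585654 to 134588062). Rps4l on chromosome 6, annotated as a transcribed pseudogene, was at 71.5 ± 4.79 FPKM in controls against 20.1 ± 2.89 FPKM for Rps4x (chromosome X, 102184941 to 102189391), a protein of the small subunit.

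**Figure D2:**
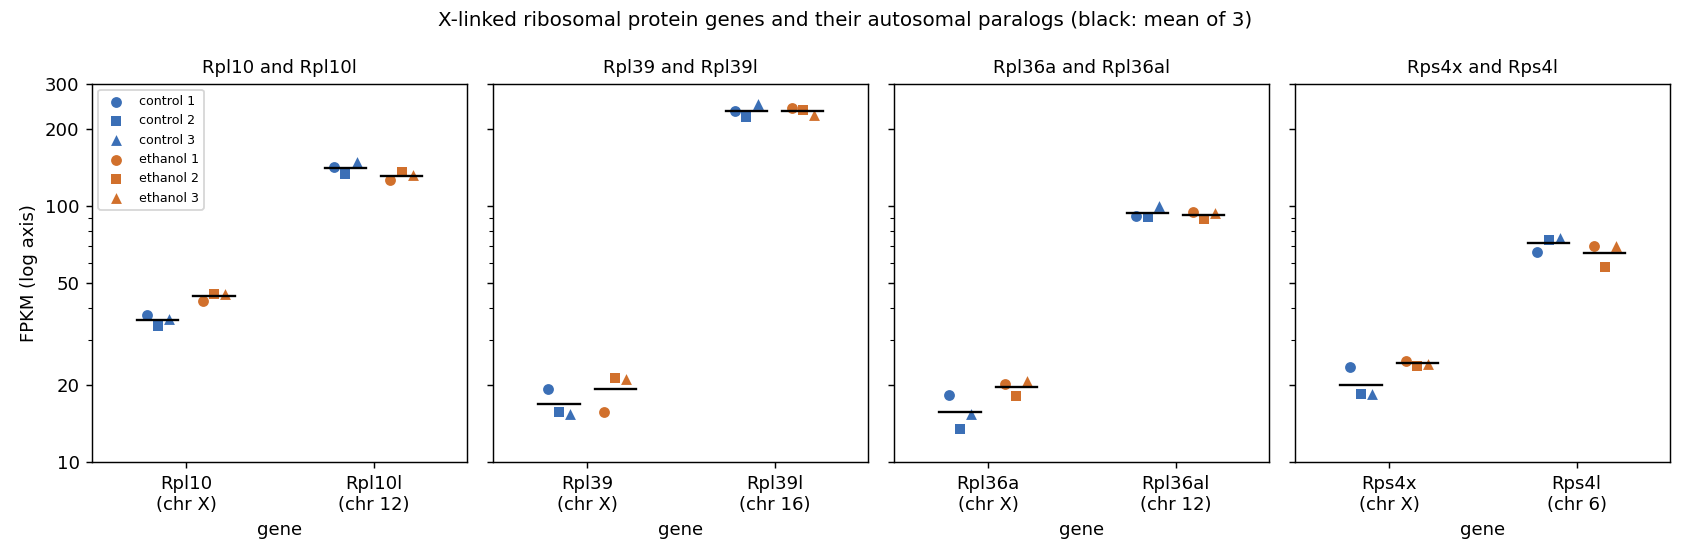
FPKM (log axis) of the 4 X-linked ribosomal protein genes and their autosomal copies in each library, with 3 control (blue) and 3 ethanol (orange) libraries per gene and a black line at each mean. In each of the 4 panels the autosomal copy lies above the X-linked gene in all 6 libraries, and in the panel of Rpl10 the 3 ethanol libraries lie above the 3 controls.

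Pairs of autosomal genes had no common direction. Rpl22l1 was above Rpl22, a regulator of lymphocyte development, with 73.9 ± 4.91 and 19.7 ± 0.78 FPKM in controls, although Rpl22 had the longer transcript and more reads. Rps27l, a target of p53, reached 0.215 ± 0.0070 times the level of Rps27, and Rpl7l1 reached 0.0578 ± 0.0045 times that of Rpl7. Rps27rt has the coding sequence of Rps27 with 100% identity, so reads cannot be assigned between them with confidence and its values are not read further.

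No ribosomal protein gene passed the test between diets. With Benjamini-Hochberg adjustment over 25073 genes, the quasi-likelihood test of edgeR called 0 of 83 members higher and 0 lower, where 0% of all genes were called in either direction. DESeq2, which called 1.11% of its genes higher and 0.695% lower, called 0 members, and limma-voom, with 0.012% and 0.00798%, also called 0. At an unadjusted p under 0.05 there were 4 members higher and 3 lower, together 8.43%, against 7.45% higher and 5.89% lower, together 13.3%, of all genes. The diets did not overlap for 3 members on the higher side and 2 on the lower side, together 6.02%, against 9.76% and 9.01%, together 18.8%. The lowest adjusted p of a member in edgeR was 0.18, that of Rpl10.

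The members were split evenly between directions. Of 83 log2 fold changes of ethanol over control, 42 were above 0 and 41 below, or 50.6% above, against 51.5% above and 48.5% below over all genes. Their median was 0.0020, against 0.0065 over all genes, and 67 members (80.7%) lay within 0.1 of 0, where 39.3% of all genes did. The members are also measured more precisely, with a median standard error of 0.075 against 0.142. The median was -0.011 in the large subunit and 0.013 in the small subunit. The count above 0 rested on single libraries: without control library 2 it was 16, without ethanol library 3 it was 24, and on log2(TPM + 1) it was 67, a scale on which the median of all genes was itself 0.044.

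**Figure D3:**
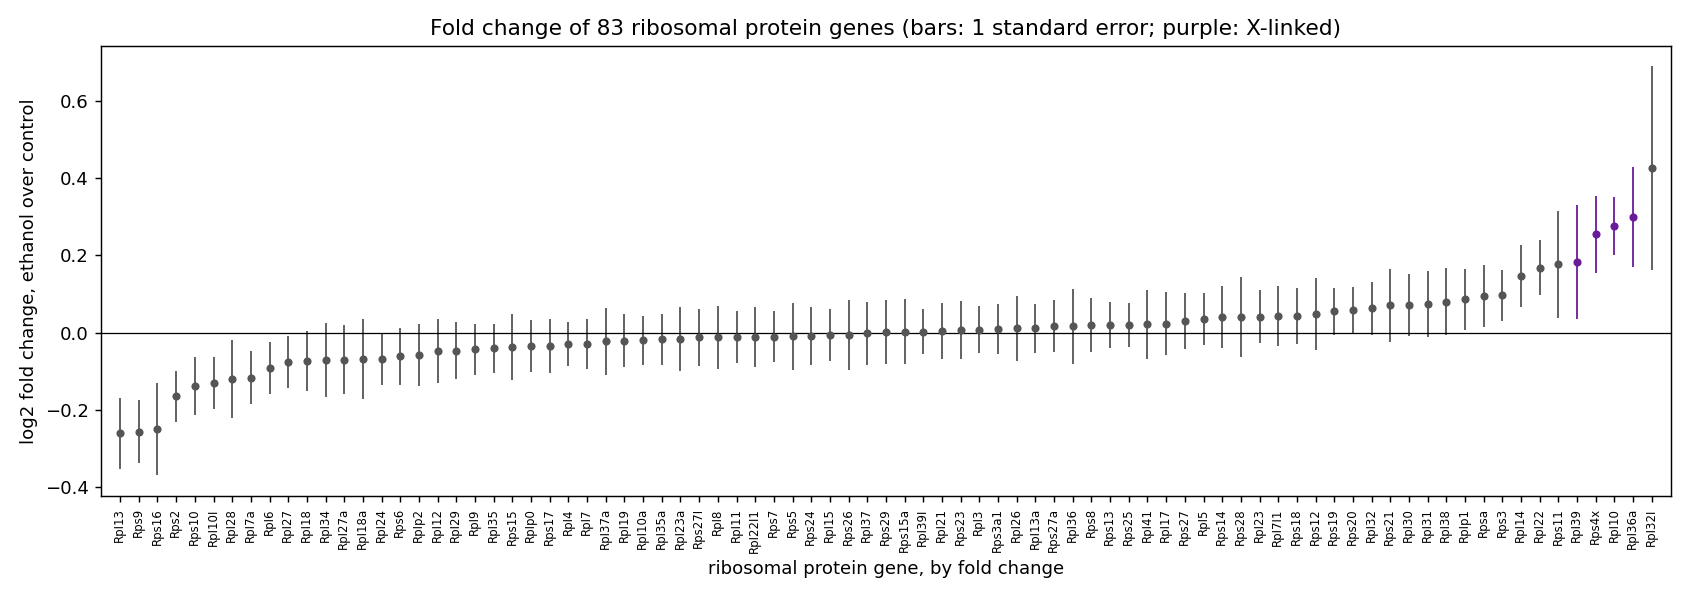
Log2 fold change (ethanol over control, from edgeR) of the 83 tested ribosomal protein genes, ordered by value, with bars of 1 standard error and the X-linked genes in purple. Most points lie within 0.1 of 0, and the 4 X-linked genes lie at the upper end between 0.18 and 0.30.

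The share of all counts taken by the 84 members was 1.25%, 1.17% and 1.33% in the control libraries and 1.22%, 1.25% and 1.32% in the ethanol libraries. The diets overlapped, with 1.25 ± 0.077% and 1.26 ± 0.050% (SD, n = 3, exact 2-sided permutation p = 1.0; with 3 libraries a diet the test cannot go below 0.1). As a share of summed TPM they took 3.14 ± 0.078% and 3.26 ± 0.032% (exact permutation p = 0.2). The small subunit alone took 1.187 to 1.222% of summed TPM in controls and 1.243 to 1.271% under ethanol, without overlap (exact permutation p = 0.1). Of all counts it took 0.4319 to 0.4829% and 0.4535 to 0.4859%, with overlap (exact permutation p = 0.6). The large subunit overlapped on summed TPM, at 1.89 to 2.006% and 1.978 to 2.015% (exact permutation p = 0.2). For all 84 members, the difference of 0.0121 percentage points in counts was -0.0273 when control library 2 was left out and -0.0156 when ethanol library 3 was.

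Libraries of 1 diet differed in a way that many members shared. Control library 2 was the lowest of the 6 libraries for 51 of 83 members and control library 3 the highest for 46, on the scale of CPM with TMM factors. Ethanol library 1 was the lowest for 17 members and ethanol library 3 the highest for 23. The median deviation of the members from their own means, on the log2 scale, was 0.018, -0.109 and 0.091 in control libraries 1 to 3. In ethanol libraries 1 to 3 it was -0.060, -0.016 and 0.075. Elongating spermatid genes, a list of 10 that holds the protamines and transition proteins, also had their lowest summed level in control library 2, at 15390 CPM, followed by ethanol library 1, at 15410 CPM, and reached 17890 CPM in control library 3 and 18470 CPM in ethanol library 3. The part of this in the spread of the ribosomal protein genes was not tested. In these whole-testis samples, fewer cells of a type and less RNA per cell cannot be told apart.

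**Figure D4:**
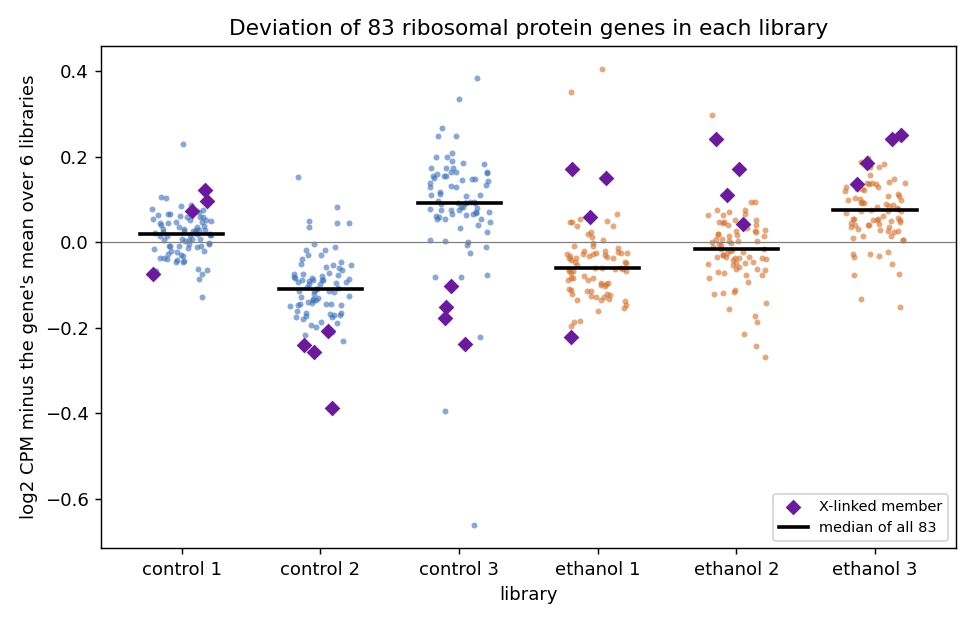
Log2 CPM of each of the 83 tested members minus its mean over the 6 libraries, by library (blue: control, orange: ethanol), with the X-linked members as purple diamonds and a black line at the median of all 83. The medians are lowest in control library 2 and highest in control library 3, while the X-linked members lie below the median in control libraries 2 and 3 and all 4 lie above it in ethanol libraries 2 and 3.

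The X-linked members had the largest values on the higher side, apart from the weakly expressed Rpl32l. The CPM of Rpl10 was 33.5, 29.9 and 32.8 under the control diet and 36.7, 39.7 and 40.1 under ethanol. All 3 ethanol libraries lay above the controls, with 0.28 as the log2 fold change (SE 0.08, adjusted p = 0.18 in edgeR). The CPM of Rps4x was 25.8, 20.2 and 20.4 under the control diet and 26.7, 26.0 and 26.5 under ethanol. The diets did not overlap for Rps4x, but control library 1 was close to the ethanol libraries. Its log2 fold change was 0.26 (SE 0.10, adjusted p = 0.301 in edgeR).

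Rpl36a, a protein near the exit site for transfer RNA, had a CPM of 10.0, 7.26 and 8.56 in controls and of 10.7, 9.79 and 11.3 under ethanol. Control library 1 lay within the ethanol range, and the log2 fold change was 0.30 (SE 0.13), or 0.19 without control library 2. For Rpl39 the CPM was 9.40, 7.48 and 7.64 in controls and 7.40, 10.2 and 10.2 under ethanol. Ethanol library 1 lay below all controls, and the log2 fold change was 0.18 (SE 0.15). Without 1 library it ran from 0.10, without ethanol library 3, to 0.32, without ethanol library 1, and leaving out any of the other libraries but control library 3 also moved it by over 1.5 times. The summed level of the 4 genes was 64.8 to 78.7 CPM in controls and 81.6 to 88.1 CPM with ethanol, without overlap (exact 2-sided permutation p = 0.1 on their share of the counts, the smallest possible). All 4 log2 fold changes were above 0. Of all 1031 tested X-linked genes 64.5% were above 0, with a median of 0.08, and 0 were called by edgeR. At an unadjusted p under 0.05 were 158 higher and 25 lower, together 17.7%, against 13.3% of all genes (7.45% higher and 5.89% lower). Among these 1031 genes DESeq2 called 20 higher and 1 lower, none of them a member. Over all 18265 genes with an adjusted p it called 203 (1.11%) higher and 127 (0.695%) lower.

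Several cell type markers also differed in summed level between the diets. Summed Sertoli cell markers, from a list of 16, were at 999.4 to 1061 CPM in controls and 1155 to 1302 CPM with ethanol. Of the 16, 14 were above 0, and the lowest log2 fold change was -1.09. The 12 meiosis genes were at 4305 to 4325 CPM and 3828 to 3926 CPM, and 10 of 12 were below 0. Macrophage markers, 11 genes, were at 112.1 to 121.4 and 132.8 to 137.7 CPM, with 10 above 0 and the lowest at -0.44. The 9 peritubular and stromal genes, all above 0, were at 190 to 198 and 222 to 255.7 CPM, and the 6 tested erythroid genes at 28.6 to 44.7 and 56.8 to 69.5 CPM. In these 5 lists the diets did not overlap, and no tested marker was listed at 0. The summed levels overlapped in the 13 spermatogonia genes, at 134.3 to 151.4 and 142.5 to 150.5 CPM, although 11 of 13 were above 0. They also overlapped in the 10 round spermatid genes, at 2271 to 2552 and 2201 to 2383 CPM. Of these, however, 9 of 10 were below 0, with a median of -0.15, against -0.14 for the meiosis genes. The summed levels of the 10 Leydig cell genes, at 705 to 733.3 and 612.2 to 753.5 CPM, overlapped as well. So did those of the 7 endothelial genes, at 44.6 to 49.3 and 46.78 to 56.26 CPM. The 6 adipose genes, at 12.42 to 20.3 and 18.1 to 40.14 CPM, and the 1 tested epididymis gene also overlapped. The part of these markers in the values of the X-linked genes was not tested.

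The autosomal copies of the X-linked genes did not share these values. The CPM of Rpl10l was 162.8, 150.4 and 172.1 in controls and 139.6, 153.2 and 150.8 under ethanol. The diets overlapped, with -0.13 as the log2 fold change (SE 0.07, adjusted p = 0.442 in edgeR), or -0.07 on log2(TPM + 1). That of Rpl39l was 205.7, 193.4 and 209.8 in controls and 205.9, 205.6 and 198.6 under ethanol, so that the ethanol libraries lay within the range of the controls. For Rpl36al the CPM was 54.3 ± 3.89 under the control diet and 52.5 ± 1.5 under ethanol, with overlap.

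The ratio of copy to parent was tested in 8 pairs by an exact 2-sided permutation test on log2 FPKM ratios, in which 0.1 is the smallest possible p. For Rpl10l and Rpl10 the mean log2 ratio was 1.97 ± 0.055 in controls and 1.56 ± 0.018 with ethanol, a difference of -0.41 (exact p = 0.1, 0.4 after Benjamini-Hochberg adjustment over the 8 pairs). For Rpl36al and Rpl36a it was 2.59 ± 0.23 and 2.23 ± 0.064, a difference of -0.36 without overlap (exact p = 0.1, adjusted 0.4). The ratios of Rps4l to Rps4x (-0.41, exact p = 0.2) and of Rpl39l to Rpl39 (-0.20, exact p = 0.3) also lay lower with ethanol, with overlap, and the latter ran from -0.37 without ethanol library 1 to -0.10 without control library 3. Differences were -0.18 for Rpl22l1 and Rpl22, -0.03 for Rps27l and Rps27 and 0.08 for Rpl7l1 and Rpl7, each with overlap. The first was -0.07 without ethanol library 3, the second 0.02 without ethanol library 3, and the last 0.01 without control library 3 and 0.12 without control library 1. Rps27rt and Rps27 were also among the 8 pairs. With 0.1 as the smallest possible p, no pair could reach an adjusted p under 0.05, so the adjustment decides nothing about the pairs.

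On the lower side, Rps9, a protein of the small subunit that guards decoding accuracy, had a CPM of 172.6, 155.8 and 155.0 in controls and of 129.2, 124.3 and 151.5 under ethanol. The diets did not overlap, although ethanol library 3 came close to the controls, and the log2 fold change was -0.26 (SE 0.08, adjusted p = 0.223 in edgeR). For Rpl13 the CPM was 294.4, 283.0 and 357.9 in controls and 249.6, 244.4 and 286.8 under ethanol. Ethanol library 3 lay above control library 2, and the log2 fold change was -0.26 (SE 0.09), or -0.16 without control library 3.

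Rps2, at the entry of the messenger RNA channel, had a CPM of 144.5, 146.4 and 160.0 in controls and of 136.8, 125.9 and 139.7 under ethanol. The diets did not overlap, and the log2 fold change was -0.16 (SE 0.07), or -0.11 on log2(TPM + 1). Rps16 and Rps10 had log2 fold changes of -0.25 (SE 0.12) and -0.14 (SE 0.07), both with overlap. That of Rps16 was -0.11 without control library 3, and that of Rps10 was -0.08 on log2(TPM + 1). Among the autosomal genes on the higher side, Rpl22 had a CPM of 47.1, 47.2 and 51.6 in controls and of 53.3, 52.5 and 58.2 under ethanol, without overlap (log2 fold change 0.17, SE 0.07). Rpl14 stood at 0.15 (SE 0.08) and Rpl32l at 0.43 (SE 0.26), both with overlap. Without control library 3 they were 0.07 and 0.24, Rpl14 was 0.22 without control library 1, and Rpl32l was 0.27 on log2(FPKM + 1).

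Genes that make and control ribosomes also gave 0 calls in edgeR, which called 0% of all 25073 genes in either direction. Of 40 ribosome biogenesis genes 26 were below 0, with a median of -0.05, and 0 passed edgeR's adjusted threshold, as in the other pathway lists below. At an unadjusted p under 0.05 were 3, or 7.5% against 13.3% of all genes, all lower: Bysl, which matures the small subunit, at 36.1 ± 3.19 and 30.6 ± 1.05 CPM, the helicase Ddx18 at 45.3 ± 2.31 and 39.8 ± 1.80 CPM, and Rrp12 at 71.9 ± 0.99 and 65.6 ± 1.03 CPM, each without overlap. The log2 fold change of Rrp12, -0.13, was -0.08 on log2(TPM + 1). Of 12 tested genes of RNA polymerase I and its factors 8 were below 0, and 1 (8.33%) had an unadjusted p under 0.05, Taf1b at -0.17 (SE 0.07), or -0.11 without ethanol library 1. Of 78 mitochondrial ribosomal protein genes 55 were below 0, with a median of -0.04 and 2 at an unadjusted p under 0.05, a share of 2.56%, below the 13.3% of all genes. These were Mrpl12 at -0.36 (SE 0.12), or -0.23 without control library 3, and Mrps22 at -0.24 (SE 0.09).

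Of 16 translation factor genes whose messenger RNAs carry the same TOP motif, 11 were below 0, and 1 (6.25%) had an unadjusted p under 0.05. It was the X-linked initiation factor gene Eif2s3x, with a CPM of 9.65 ± 0.99 in controls and of 12.5 ± 0.90 under ethanol, without overlap. The 18 genes of mTOR signalling and its TOP effectors had 5 members higher and 1 lower at an unadjusted p under 0.05, or 33.3% against 13.3% of all genes. The diets did not overlap for 22.2% of the 18, against 18.8% of all genes, and DESeq2 and limma-voom called 0 of them. Rictor, a scaffold of mTOR complex 2, had a CPM of 62.3, 66.9 and 61.6 in controls and of 74.6, 74.7 and 72.8 under ethanol. The diets did not overlap, and the log2 fold change was 0.22 (SE 0.06, adjusted p = 0.187 in edgeR). Tsc1, an inhibitor of the pathway, stood at 0.19 (SE 0.07) and Akt1s1, an inhibitory subunit of mTOR complex 1, at -0.24 (SE 0.08), both without overlap. With an offset for transcript length Rictor was at 0.12 and Tsc1 at 0.10. Of 19 ribosome quality and stress genes 2 had an unadjusted p under 0.05, or 10.5%, also below the share of all genes, both higher: Map3k20, the kinase that senses stalled ribosomes, at 0.37 (SE 0.14), and Eif2ak2, a kinase that senses double-stranded RNA, at 0.21 (SE 0.09), both with overlap. Map3k20 was at 0.24 without control library 3.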

How the data were processed

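Read counts per gene were deposited as whole numbers without normalization, per the file headers. FPKM and TPM were computed by the authors, per the file headers. Ribosomal RNA was depleted and a stranded library kit was used, per the labels' protocols. The submitters' processing notes name HISAT2 and mm10. For the HISAT2 version, counting tool, strand setting and treatment of reads with several matches, the sources used here give nothing. There were 0 sample columns outside the 6 libraries.

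Counts were tested with edgeR 4.0.16 in R 4.3.3 (filterByExpr, TMM, quasi-likelihood F-test, no covariate, threshold 0.05) over 25073 genes, and the procedure was tested on simulated data. CPM is TMM-scaled. Standard errors were derived from F and the fold change. In no pair of libraries did the counts agree within sampling noise (chi-square per gene at least 7.66). Alternatives included DESeq2 1.42.0 and limma 3.58.1. Positions came from the RefSeq table of GRCm38.p6. Coding identity and shared windows used GENCODE M21 transcripts.

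The members, lists and pairs were chosen with earlier results of these data known. Named were the pairs, stalk genes, a panel with Rpsa, Rps6, Rack1 and Fau, the members of highest and lowest FPKM, X-linked members, the 6 members of smallest p in each direction, and up to 3 genes of smallest p per list, here those with an unadjusted p under 0.05. Rps15a and Rpl22 as low genes, and the marker lists printed, were chosen after their values were seen. One gene of the panel is not reported here. Proteins are not shown here.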

Additional observations from a re-analysis of the deposited data

How the results depend on the processing

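With 0 members called higher and 0 lower, no scaling, filter, tool, unit, block, length offset or left-out library called a member at an adjusted p of 0.05. At a threshold of 0.1 edgeR also called 0. With DESeq2, Rpl10 (adjusted p = 0.081, the lowest of any member and setting) and Rps9 (adjusted p = 0.0987) lay under 0.1. The count of members above 0 was 42, and 67 on log2(TPM + 1); without 1 library it ranged from 16 to 60. The median of all members ranged from -0.056 to 0.041 without 1 library (-0.059 to 0.037 in the large and -0.037 to 0.053 in the small subunit), and so took both signs. The difference in the share of counts ranged from -0.0273 to 0.0501 without 1 library and was 0.113 on summed TPM. The difference in log2 ratio of Rps27l to Rps27 ranged from -0.094 to 0.023 without 1 library; those of Rpl10l to Rpl10 and of Rpl36al to Rpl36a ranged from -0.43 to -0.38 and from -0.49 to -0.28. Every log2 fold change printed for a single gene kept its sign under all settings run. The ratio of Rpl3l to Rpl3 was not run with a pseudocount of 0.1. The log2 fold change of Rpl10 ranged from 0.23 to 0.33 and that of Rps9 from -0.35 to -0.20.

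Libraries of the same number did not regularly deviate together (correlations of -0.143, 0.029 and 0.417 for numbers 1 to 3 over 13229 genes). The highest correlation, 0.466, was between control library 2 and ethanol library 1, so the numbers are not taken as pairs. With the replicate block 15 genes were called over all, against 0 without it, and 0 of them were members, the median was 0.0031, the share difference was 0.0121 and the ratio difference of Rpl10l to Rpl10 was -0.41 (exact sign-flip p = 0.25, the smallest possible). With 3 libraries a diet and a median standard error of 0.075, small differences of members are not detectable after adjustment.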
